A study of Rattus norvegicus with 20 samples.

Results

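Promoters of 7 genes that mark immune cells in the liver were followed on 20 arrays of NF-kB p65 binding in rats. The genes were Cd163 and Csf1r for macrophages, Cd3e, Cd8a, Ms4a1 and Gzma for lymphocytes, and S100a8 for neutrophils. They were chosen by name, with earlier results of these data known, as 7 of 14368 genes in the deposited peak lists. Each was represented by all array probes within 5 kb of its listed start. Each gene had 1 tiled region there, with 44 to 53 probes.

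The study asked how long-term ethanol feeding alters p65 binding while the liver regrows. Male wild-type Sprague Dawley rats of 8 to 10 weeks, weighing 275 to 300 g by the sample labels, drank a liquid diet with 36% of its calories as ethanol for 5 weeks, or a pair-fed diet with carbohydrate in its place. All rats then lost 70% of the liver by partial hepatectomy. The 0h samples were the left lateral and median lobes taken at surgery, and the 1h and 6h samples were the remnant lobes. The 6 groups were carbohydrate 0h (3 arrays), carbohydrate 1h (3), carbohydrate 6h (4), ethanol 0h (3), ethanol 1h (3) and ethanol 6h (4). Time and lobe changed together and cannot be told apart.

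NF-kB is a family of transcription factors held in the cytoplasm by inhibitor proteins until an inflammatory or stress signal releases them. The p65 subunit, RelA, then enters the nucleus and binds kB sites in promoters and enhancers. In the liver this pathway works in hepatocytes and in resident macrophages, the Kupffer cells, which release cytokines early after hepatectomy. Chromatin here came from whole liver, where every cell carries these promoters whether or not it expresses the gene. A change in the share of immune cells and a change in binding per cell cannot be told apart. Binding arrays give no expression level, so the tissue could not be checked against the expression of its markers.

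The signal of a promoter was the mean log2 ratio of the probes in 1 window of up to 500 bp, the window with the highest mean over all 20 arrays, after each array was turned so that its listed peaks were positive and centred on its median. A value of 0 is thus the median probe of that array, and levels are compared between arrays of 1 promoter only. Differences were tested with limma over 14540 promoters with Benjamini-Hochberg adjustment, and a member passed at an adjusted p under 0.05. The arrays fell into 4 runs by their identifiers. The first run held 5 of the 6 arrays of 0h and none of a later time, and the third held 11 of the 14 later arrays and none of 0h. Comparisons of a later time with 0h are therefore mostly comparisons between runs, while 6h against 1h and the diets at 1h and 6h can be read within the third run.

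Promoter sequence was available from RefSeq (GRCr8) for 5 of the 7 genes, and the stretch upstream of the start is shown for a macrophage gene, the T cell gene with the highest signal difference, and the granzyme whose signal dipped at 1h. The Cd163 stretch is chr4:158770524-158770750 on the plus strand, that of Cd8a chr4:104923866-104924115 on the plus strand, and that of Gzma chr2:46485697-46485946 on the minus strand. Capitals mark any match, on either strand, to a looser kB-like pattern (GGG, any 5 bases, CC) or to TATAA.
Cd163: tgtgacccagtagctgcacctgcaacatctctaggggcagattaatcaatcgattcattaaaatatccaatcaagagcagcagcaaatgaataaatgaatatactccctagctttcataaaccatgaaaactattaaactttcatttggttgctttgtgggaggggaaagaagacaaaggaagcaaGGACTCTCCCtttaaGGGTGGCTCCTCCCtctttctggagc
Cd8a: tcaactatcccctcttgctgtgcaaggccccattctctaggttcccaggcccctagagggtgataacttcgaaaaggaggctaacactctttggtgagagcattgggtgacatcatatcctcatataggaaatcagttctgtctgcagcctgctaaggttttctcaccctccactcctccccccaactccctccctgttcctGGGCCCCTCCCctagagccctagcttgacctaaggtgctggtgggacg
Gzma: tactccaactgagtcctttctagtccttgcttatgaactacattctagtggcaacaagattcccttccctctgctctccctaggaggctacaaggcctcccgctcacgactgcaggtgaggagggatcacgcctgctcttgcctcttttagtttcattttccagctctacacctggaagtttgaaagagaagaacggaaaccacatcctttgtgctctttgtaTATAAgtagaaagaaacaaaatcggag

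In the 250 bases upstream of the start, none of the 5 genes had a match to the kB consensus on either strand, which 6.33% of 33469 RefSeq promoters of that length had. The looser pattern, of which the consensus is a special case, matched 3 times upstream of Cd163 and 2 times upstream of Cd8a, with overlaps, and not upstream of Csf1r, Cd3e or Gzma, while 42.3% of all promoters held it. GAGGAA, the core of sites for the myeloid factor PU.1, matched 2 times upstream of Csf1r and 1 time upstream of Cd3e, and 23.3% of promoters held it. TATAA matched 1 time upstream of Gzma and not upstream of the other 4, and 24% of promoters held it. TGANTCA, the form of AP-1 sites, matched in none of the 5, and 6.34% of promoters held it. The looser pattern and TATAA were added to the search after the sequences had been seen. None of the windows of highest signal described next lay within 250 bp upstream of the listed start.

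The window of highest signal lay near the start for 2 genes and upstream for 5. In the coordinates of the files, whose build is not given in the sources used here, the Cd163 window was chr4:160394907-160395310, 75 to 478 bp downstream of the listed start, and the Ms4a1 window was chr1:213770290-213770695, 61 to 466 bp downstream. The Csf1r window was chr18:57079397-57079799, from −926 to −524 bp, and the S100a8 window was chr2:182960915-182961335, from −1078 to −658 bp. The Cd8a window was chr4:104588543-104588945, from −1378 to −976 bp, the Gzma window chr2:44501984-44502389, from −2261 to −1856 bp, and the Cd3e window chr8:47960924-47961245, from −2826 to −2505 bp with 4 probes. The windows of the other genes held 5 probes.

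**Figure D1:**
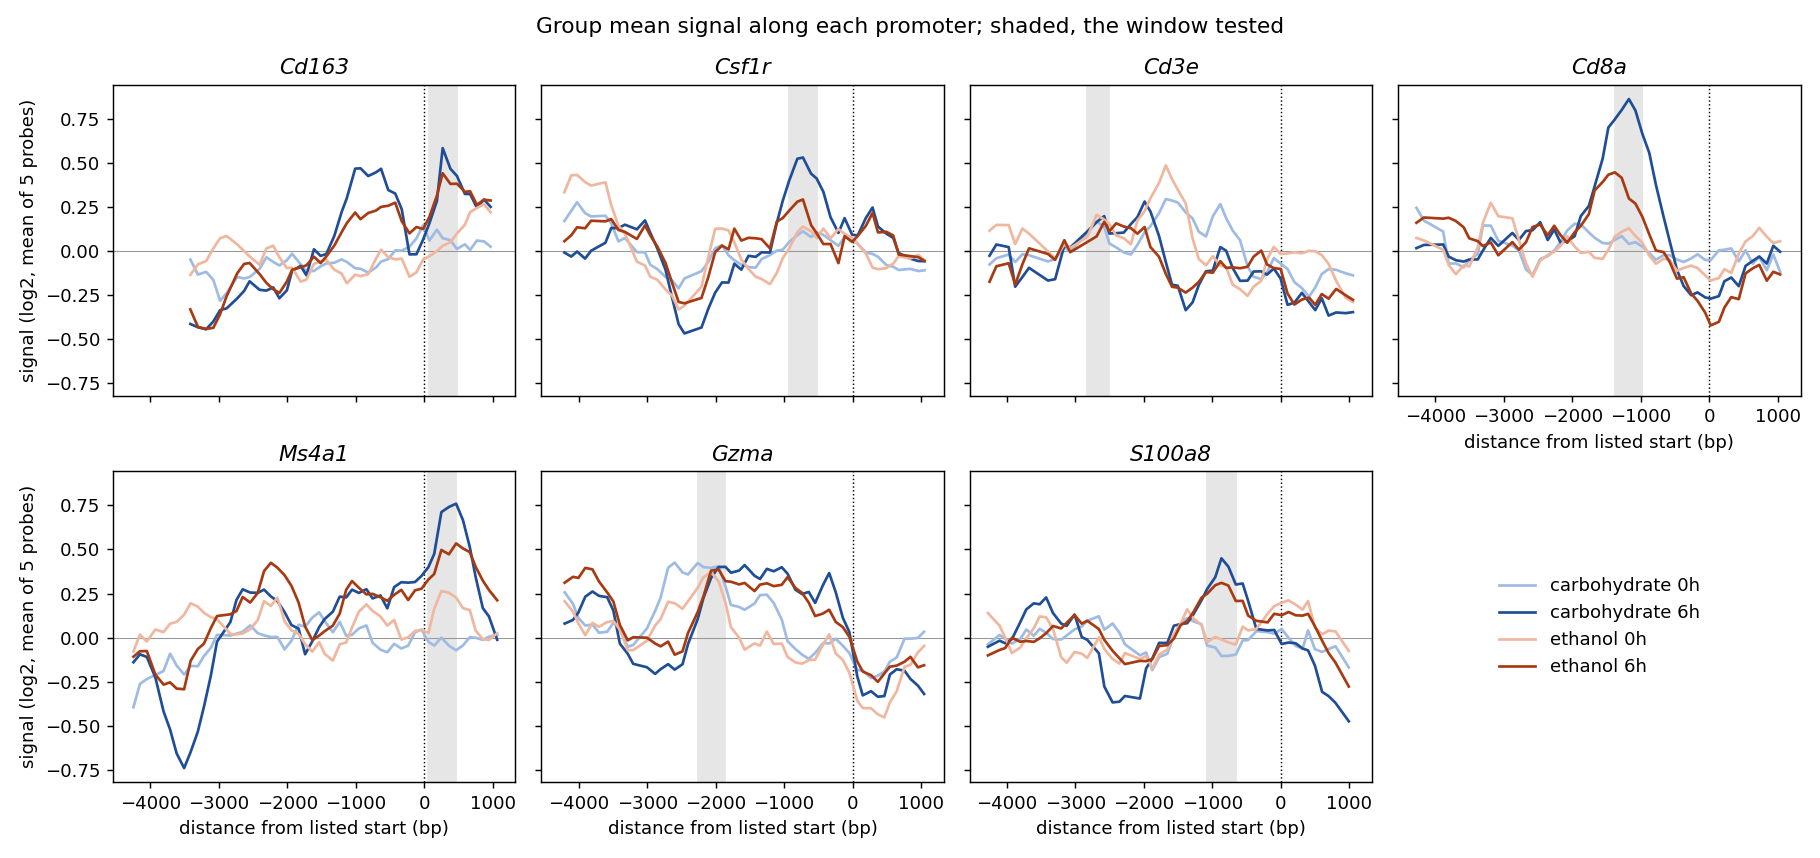
Group mean signal (log2, running mean of 5 probes) against distance from the listed start in bp for each of the 7 genes; shading marks the window tested and the dotted line the start. At Cd8a the carbohydrate 6h curve stands above the 3 others shown from about −1378 to −976 bp and below 0 at the start.

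At 6h after hepatectomy, carbohydrate-fed rats had higher signal than at 0h at 5 of the 7 promoters: Cd163, Csf1r, Cd8a, Ms4a1 and S100a8. Over all promoters 20.6% passed in this comparison in either direction. The 5 differences ran from 0.42 at Csf1r to 0.82 at Cd8a on the log2 scale, against a median of 0.15 over all promoters. Cd3e and Gzma differed by 0.03 and −0.06 and did not pass. At Cd163, Cd8a, Ms4a1 and S100a8 every 6h array stood above every 0h array, which was so for 26% of all promoters.

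Cd163, the scavenger receptor through which macrophages take up haemoglobin-haptoglobin, had signals of 0.22, 0.00 and 0.00 at carbohydrate 0h and of 0.71, 0.43, 0.61 and 0.59 at 6h. The groups did not overlap. The difference was 0.51 ± 0.13 (SE; limma adjusted p = 0.00623). Csf1r, the receptor for macrophage colony-stimulating factor, had −0.02, −0.07 and 0.43 at 0h and 0.34, 0.64, 0.60 and 0.53 at 6h. Here replicate 3 of 0h lay above the lowest 6h array, so the groups overlapped, with a difference of 0.42 ± 0.14 (adjusted p = 0.0357).

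Cd8a, the coreceptor chain of cytotoxic T cells, had −0.13, −0.12 and 0.37 at carbohydrate 0h, then 0.38, 0.44 and 0.22 at 1h, and 0.74, 1.06, 0.82 and 0.84 at 6h. Every 6h array stood above every 0h array, as was so for 26% of promoters. The difference from 0h was 0.82 ± 0.14 (limma adjusted p = 0.0009). Ms4a1 encodes CD20, a surface protein of B cells. Its signals were −0.25, −0.27 and 0.52 at 0h and 0.68, 0.89, 0.61 and 0.67 at 6h. One array, replicate 3 of 0h, stood apart from the other two and just below the 6h range, and the difference was 0.71 ± 0.16 (adjusted p = 0.00324). S100a8, a calcium-binding protein abundant in neutrophils, had −0.31, −0.16 and 0.16 at 0h and 0.38, 0.47, 0.36 and 0.58 at 6h, a difference of 0.55 ± 0.12 (adjusted p = 0.00263).

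Cd3e, a signalling chain of the T cell receptor complex, had 0.25, 0.15 and 0.13 at 0h and 0.16, 0.24, 0.18 and 0.23 at 6h, so the groups lay within the same range (95% interval of the difference −0.24 to 0.29). Gzma, a granule protease of cytotoxic T and natural killer cells, had 0.60, 0.35 and 0.24 at 0h and 0.20, 0.10, 0.56 and 0.50 at 6h, which also overlapped (interval −0.33 to 0.21).

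**Figure D2:**
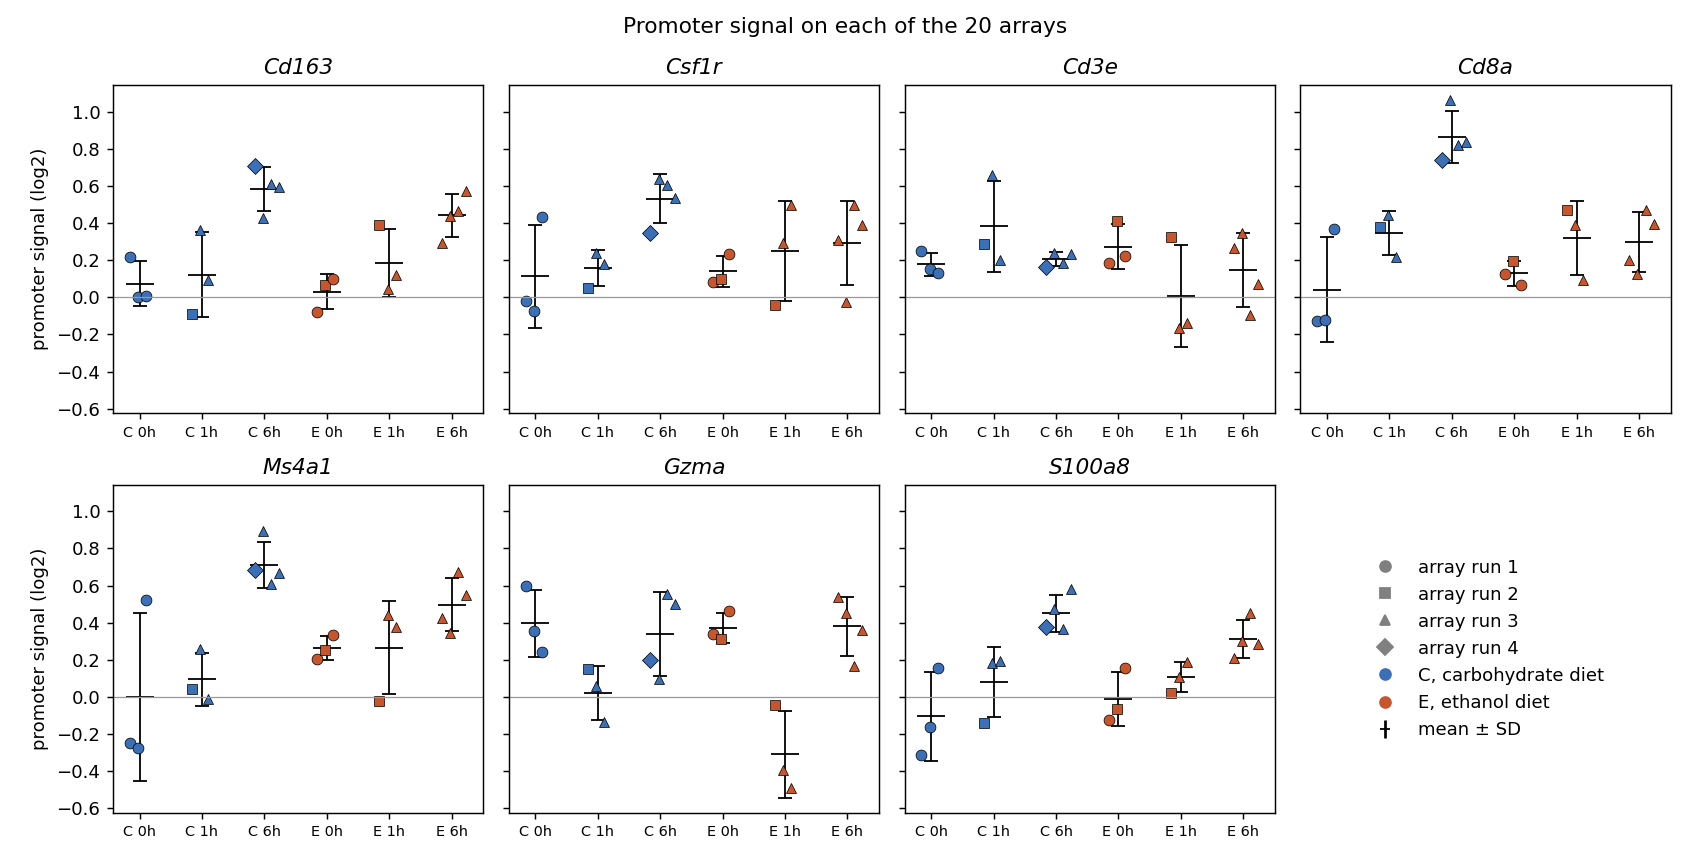
Promoter signal (log2) of the 7 genes on each array, by diet and time, with symbols for the 4 array runs; bars are mean ± SD of 3 or 4 arrays. The carbohydrate 6h arrays of Cd8a sit between 0.74 and 1.06, and the ethanol 1h arrays of Gzma sit below 0.

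With array run as a term in the model, none of the 7 passed for 6h against 0h in carbohydrate, while the 5 differences were from 0.24 at Csf1r (adjusted p = 0.683) to 0.90 at Cd8a (adjusted p = 0.142). Over all promoters that model passed 52, against 2999 without the term. Carbohydrate 0h and 6h share no run, so that model links them only through the 3 arrays of the second run. It can thus hardly tell run from time here. Replicate 3 of carbohydrate 0h came under the same animal number as replicate 2 of 6h, and within that pair the 6h signal was higher by 0.70 at Cd8a, 0.42 at Cd163, 0.37 at Ms4a1, 0.32 at S100a8 and 0.21 at Csf1r. Without replicate 2 of 0h, 2 of the 7 passed, Cd8a and S100a8, where 3.49% of all promoters did, while Cd163 was 0.47 (adjusted p = 0.0591), Ms4a1 0.58 (adjusted p = 0.06) and Csf1r 0.33 (adjusted p = 0.223). Csf1r passed in only 2 of the 7 fits that left out 1 array, losing the call without replicate 1 or 2 of 0h or replicate 2, 3 or 4 of 6h.

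The differences at 6h varied with the stretch averaged. Averaged over the whole tiled region, the 5 differences were 0.01 to 0.14 and none passed, and in the 500 bp centred on the listed start they ran from −0.22 at Cd8a to 0.30 at Ms4a1 and none passed. When each window was chosen only on arrays outside the comparison, all 5 passed, with differences of 0.51 at Cd163, 0.42 at Csf1r, 0.76 at Cd8a, 0.71 at Ms4a1 and 0.40 at S100a8. Those outside arrays included all 4 of ethanol 6h, from the third run, which also held 3 of the carbohydrate 6h arrays. The choice was thus not free of 6h or of that run.

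**Figure D3:**
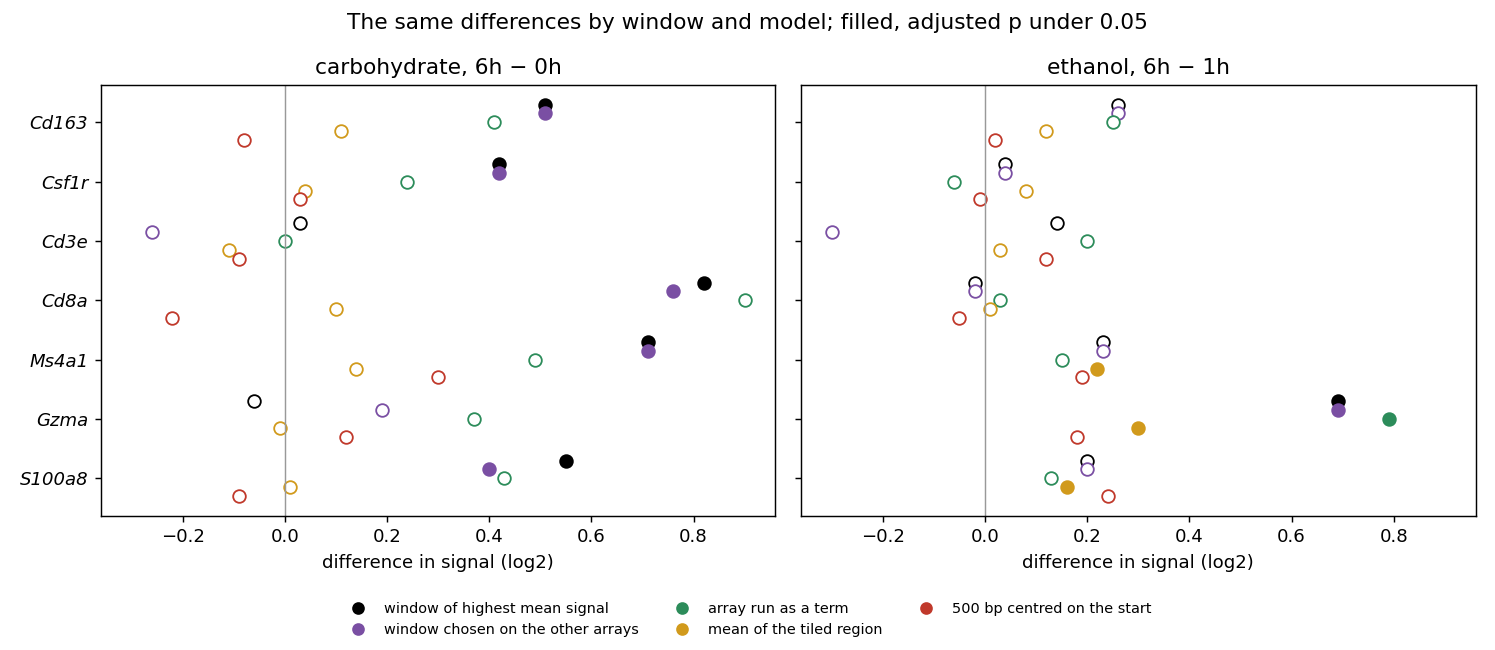
Difference in signal (log2) of each gene for 6h against 0h in carbohydrate and 6h against 1h in ethanol, under 5 choices of window and model; filled points have an adjusted p under 0.05. For carbohydrate the filled points all belong to the window of highest signal and the window chosen on the other arrays.

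From 1h to 6h in carbohydrate, Cd163, Cd8a, Ms4a1 and S100a8 rose, 4 of the 7, where 24.1% of all promoters passed in either direction. The rises were 0.46 ± 0.13 at Cd163 (limma adjusted p = 0.00914), 0.52 ± 0.14 at Cd8a (adjusted p = 0.00969), 0.62 ± 0.16 at Ms4a1 (adjusted p = 0.00618) and 0.37 ± 0.12 at S100a8 (adjusted p = 0.0232). At 1h the arrays read −0.09, 0.36 and 0.09 for Cd163, 0.04, 0.26 and −0.01 for Ms4a1, and −0.14, 0.18 and 0.20 for S100a8. Csf1r read 0.05, 0.24 and 0.18 at 1h, and its difference of 0.38 ± 0.14 had an adjusted p of 0.0531. Within the third run, which holds 2 arrays of 1h and 3 of 6h, Csf1r, Cd8a, Ms4a1 and Gzma passed, with 0.38, 0.58, 0.60 and 0.42, where 24.2% of promoters did. There Cd163 differed by 0.31 (adjusted p = 0.0886) and S100a8 by 0.28 (adjusted p = 0.099). Without replicate 1 of carbohydrate 1h, from the second run, 2 of the 7 passed, where 13.9% of promoters did, with Cd163 at 0.36 (adjusted p = 0.084) and S100a8 at 0.26 (adjusted p = 0.175). S100a8 also lost its call without replicate 4 of 6h (0.33, adjusted p = 0.0706) and Cd8a without replicate 3 of 1h (0.45, adjusted p = 0.0534). Windows chosen on the arrays outside this comparison still drew on the 4 of ethanol 6h. In them Cd163, Cd8a and Ms4a1 passed at 0.46, 0.45 and 0.62. S100a8 was 0.08 there (adjusted p = 0.611), Csf1r −0.17 (adjusted p = 0.447), and Cd3e passed at −0.41 (adjusted p = 0.0261).

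Of all 7, none passed for 1h against 0h in carbohydrate, where 11.1% of promoters did. Gzma came nearest, at −0.37 ± 0.14 (limma adjusted p = 0.0828). Its 1h arrays, 0.15, 0.06 and −0.14, all lay below its 0h arrays, as was so for 9.55% of promoters. Averaged over its tiled region the Gzma difference was −0.22 and passed (adjusted p = 0.0106). Cd8a had the highest difference upward, 0.31 ± 0.15 (adjusted p = 0.182), with overlapping arrays.

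In ethanol-fed rats the signal at 6h exceeded that at 0h at none of the 7 promoters by the test, where 0.997% of all promoters passed. The differences of Cd163, S100a8 and Ms4a1 were 0.41 ± 0.13 (limma adjusted p = 0.0805), 0.32 ± 0.12 (adjusted p = 0.125) and 0.23 ± 0.16 (adjusted p = 0.409). In these 3 every 6h array stood above every 0h array, as was so for 9.09% of promoters. Replicate 3 of 0h and replicate 1 of 6h came under the same animal number, and within that pair the 6h signal was higher by 0.19 at Cd163, 0.09 at Ms4a1 and 0.05 at S100a8. It was also higher by 0.14 at Cd8a, 0.08 at Csf1r, 0.08 at Gzma and 0.04 at Cd3e. Cd163 read −0.08, 0.07 and 0.10 at 0h and 0.29, 0.44, 0.46 and 0.57 at 6h. S100a8 read −0.12, −0.07 and 0.16 at 0h and 0.21, 0.30, 0.45 and 0.28 at 6h. The Cd163 difference passed after the arrays were scaled to the same spread (0.48, adjusted p = 0.0232) and after quantile normalization (0.50, adjusted p = 0.0153). Csf1r, Cd8a, Gzma and Cd3e differed by 0.15, 0.17, 0.01 and −0.13.

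Gzma moved at 1h in ethanol instead. It read 0.34, 0.31 and 0.46 at 0h, −0.04, −0.39 and −0.49 at 1h, and 0.54, 0.45, 0.17 and 0.36 at 6h. All 1h arrays lay below all 0h arrays, as was so for 5.14% of promoters in this diet. The difference from 0h was −0.68 ± 0.14 (limma adjusted p = 0.0279), and Gzma alone of the 7 passed, where 0.275% of promoters did. With array run as a term it was −0.43 (adjusted p = 0.941), and averaged over the tiled region −0.16 (adjusted p = 0.0986). The call was lost without ethanol 0h replicate 1 (−0.70, adjusted p = 0.0995), 0h replicate 3 (−0.64, adjusted p = 0.241), 1h replicate 2 (−0.64, adjusted p = 0.125) or 1h replicate 3 (−0.59, adjusted p = 0.179). Between 1 and 11 of all promoters passed in those 4 fits, against 40 with all arrays. Within the pair of arrays that shared an animal number, a slide and the second run, Gzma read 0.31 at 0h and −0.04 at 1h.

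From 1h to 6h in ethanol Gzma rose by 0.69 ± 0.13 (limma adjusted p = 0.000937), again alone among the 7, where 23.8% of promoters passed. Within the third run the rise was 0.82 (adjusted p = 1.13e-05), and Cd163 also passed there with 0.36 (adjusted p = 0.0295), where 35.3% of promoters did. With run as a term it was 0.79 (adjusted p = 3.58e-05), and it passed in all 7 fits that left out 1 array of these groups, with values from 0.60 to 0.82. Averaged over the tiled region it was 0.30 (adjusted p = 0.000386), and in the 500 bp at the start 0.18 (adjusted p = 0.353). S100a8 at 0.20, Ms4a1 at 0.23 and Cd163 at 0.26 did not pass in the fit of all arrays, and Cd8a differed by −0.02.

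**Figure D4:**
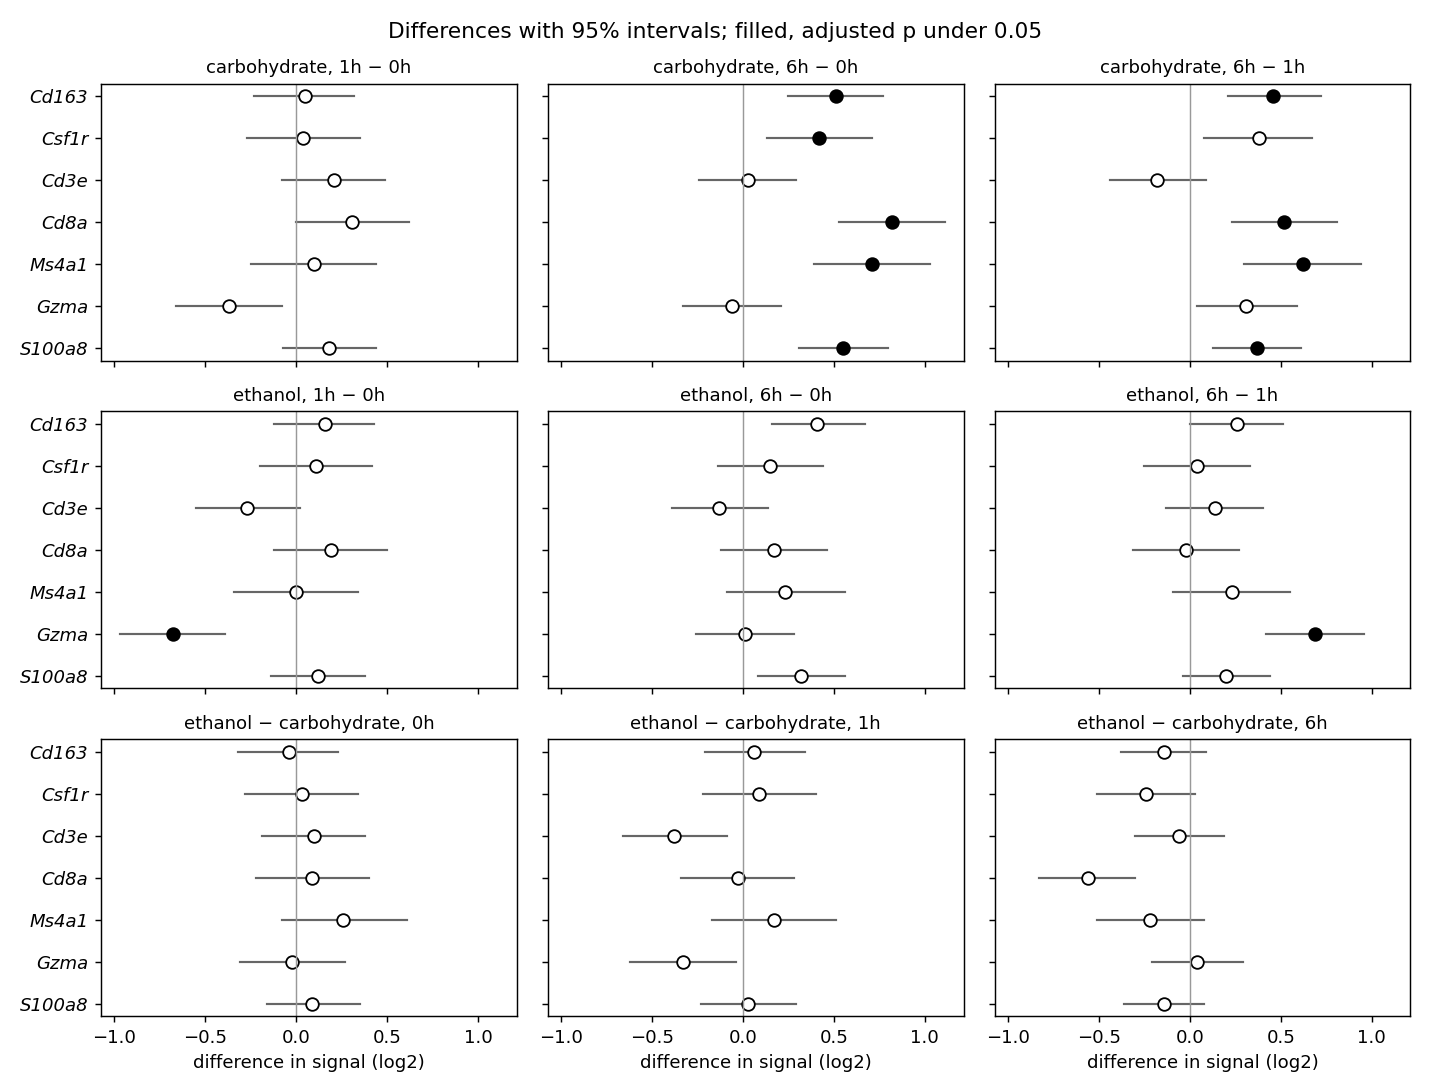
Difference in promoter signal (log2) with its 95% interval for the 7 genes in 9 comparisons; filled points have an adjusted p under 0.05. The filled points fall in 6h against 0h and 6h against 1h of carbohydrate, and at Gzma in 2 ethanol comparisons.

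Between the diets no member passed at any time, and neither did any of the 14540 promoters (0% at 0h, 0% at 1h and 0% at 6h). At 0h the differences, ethanol minus carbohydrate, ran from −0.04 at Cd163 to 0.26 at Ms4a1, whose interval was −0.08 to 0.61. At 6h 6 of the 7 were below 0, with a median of −0.14 against −0.11 over all promoters. Cd8a differed most, by −0.56 ± 0.13 (interval −0.83 to −0.30, limma adjusted p = 0.429). Its ethanol arrays at 6h, 0.20, 0.13, 0.47 and 0.40, all lay below the lowest carbohydrate array, 0.74, as was so for 9.21% of promoters. Within the third run the Cd8a difference was −0.61 and passed (adjusted p = 0.0259), where 1.8% of promoters did, and in the fit of the 6h arrays alone it was −0.56 (adjusted p = 0.0488), where 0.0825% did. In the window chosen on the arrays of 0h and 1h, whose first probe lay at −3380 bp, it was −0.01 (adjusted p = 0.992).

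At 1h Cd3e differed by −0.38 ± 0.14 between the diets (limma adjusted p = 0.486). Its arrays read 0.29, 0.66 and 0.20 in carbohydrate and 0.33, −0.16 and −0.14 in ethanol, overlapping through the ethanol array of the second run. Within the third run, with 2 arrays a diet, the difference was −0.58 and passed (adjusted p = 0.0266), where 2.46% of promoters did. Gzma differed by −0.33 ± 0.14 at 1h (adjusted p = 0.541), and its groups overlapped. The diets also did not differ by the test in the change from 0h to 1h (0% of promoters) or from 0h to 6h (0%). In the change to 6h Cd8a had −0.65 ± 0.20 (adjusted p = 0.293) and Ms4a1 −0.48 ± 0.22 (adjusted p = 0.352). With array weights both passed, at −0.78 and −0.63, in a fit that passed 15.5% of promoters. In windows chosen on the other arrays, here those of 1h, they were −0.10 and −0.18 (adjusted p = 0.805 and 0.654).

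In the order of group means, carbohydrate 6h stood highest for Cd163, Csf1r, Cd8a, Ms4a1 and S100a8. Ethanol 6h came next for Cd163 (0.44 ± 0.11, SD, n = 4, against 0.58 ± 0.12), Ms4a1 (0.50 ± 0.14 against 0.71 ± 0.12), S100a8 (0.31 ± 0.10 against 0.45 ± 0.10) and Csf1r (0.29 ± 0.23 against 0.53 ± 0.13), and these neighbours overlapped in each of the 4 genes. For Cd8a carbohydrate 6h (0.86 ± 0.14) was followed by carbohydrate 1h (0.35 ± 0.12), ethanol 1h (0.32 ± 0.20) and ethanol 6h (0.30 ± 0.16), and those 3 overlapped. Gzma was ordered otherwise: carbohydrate 0h (0.40 ± 0.18), ethanol 6h (0.38 ± 0.16), ethanol 0h (0.37 ± 0.08) and carbohydrate 6h (0.34 ± 0.23) overlapped, with carbohydrate 1h (0.02 ± 0.145) and ethanol 1h (−0.31 ± 0.23) at the end, each overlapping the group before it. Cd3e ran from 0.38 ± 0.245 at carbohydrate 1h to 0.01 ± 0.28 at ethanol 1h.

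The 2 macrophage promoters are set here beside the 5 others. For 6h against 0h in carbohydrate the median difference was 0.46 over the macrophage genes, where 2 of 2 passed, and 0.55 over the lymphocyte and neutrophil genes, where 3 of 5 did. In ethanol the medians were 0.28 and 0.17. The macrophage mean minus the mean of the others was −0.01 ± 0.07 (SD, n = 3) at carbohydrate 0h, −0.05 ± 0.10 at 1h and 0.04 ± 0.06 (n = 4) at 6h. In ethanol it was −0.12 ± 0.03 at 0h, 0.14 ± 0.15 at 1h and 0.04 ± 0.13 at 6h, and the 1h values, from 0.02 to 0.30, lay above those of 0h, from −0.14 to −0.08. Gzma and Cd3e, which enter the mean of the others, each had their lowest group mean at ethanol 1h. From 0h to 1h in ethanol the macrophage mean went from 0.08 to 0.22. The mean of the others went from 0.21 to 0.08. Levels are compared between arrays of 1 promoter only. The class difference is thus read for its change between arrays, not for its size on any array. How often other sets of genes separate in this way was not computed. No p is given for these class means, which were formed with earlier results known.

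The deposited peak lists gave a description that does not depend on the window. A gene was counted as having a peak in a group where at least 2 arrays listed one. At carbohydrate 6h 6 of the 7 had one, all but Cd3e, where 39.6% of the listed genes did, and at ethanol 6h 4 of the 7 had one (Cd163, Cd8a, Ms4a1 and Gzma), where 30.2% did. At 0h it was Gzma alone in carbohydrate (20.6% of genes) and Csf1r and Cd3e in ethanol (19.7%). At 1h it was Cd8a alone in carbohydrate (28.8%) and none in ethanol (41.6%), although ethanol 1h had the highest share of genes by this rule.

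Cd163 had peaks on 6 arrays, 3 of each diet and all of 6h, with middles from −987 to 547 bp of the start. Ms4a1 had them on all 8 arrays of 6h and on 1 other, carbohydrate 0h replicate 3, the array with the highest 0h signal. Cd8a had peaks on 8 arrays, all upstream with middles from −1595 to −950 bp, among them all 4 of carbohydrate 6h and 2 of ethanol 6h. Its peak on carbohydrate 6h replicate 2 had the highest peak score of the authors among the 7 genes, 0.961. Gzma had peaks on 10 arrays, all upstream, with none at 1h in either diet. Csf1r peaks lay in several places. Their middles were at −700 and −599 bp on 2 arrays of carbohydrate 6h, at 359 bp on 1 of carbohydrate 1h, and from −3988 to −3638 bp on 2 arrays of ethanol 0h and 1 of ethanol 1h. S100a8 had peaks on 4 arrays, with a lowest FDR of 0.08301. Cd3e had peaks on 5 arrays, with middles from −2204 to −923 bp, all outside the window tested for that gene. The end of the peak on carbohydrate 6h replicate 2, chr8:47960199-47961048, reached into that window. Of peaks with an FDR of at most 0.05, 3 genes had one on at least 2 arrays at carbohydrate 6h (Cd163, Cd8a and Ms4a1), where 14.3% of all genes did, and 3 at ethanol 6h (Cd163, Ms4a1 and Gzma), where 10.6% did. By that rule Gzma alone had one at carbohydrate 0h (4.89% of genes), and none had one at carbohydrate 1h (10.5%), ethanol 0h (4.21%) or ethanol 1h (20%).

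**Figure D5:**
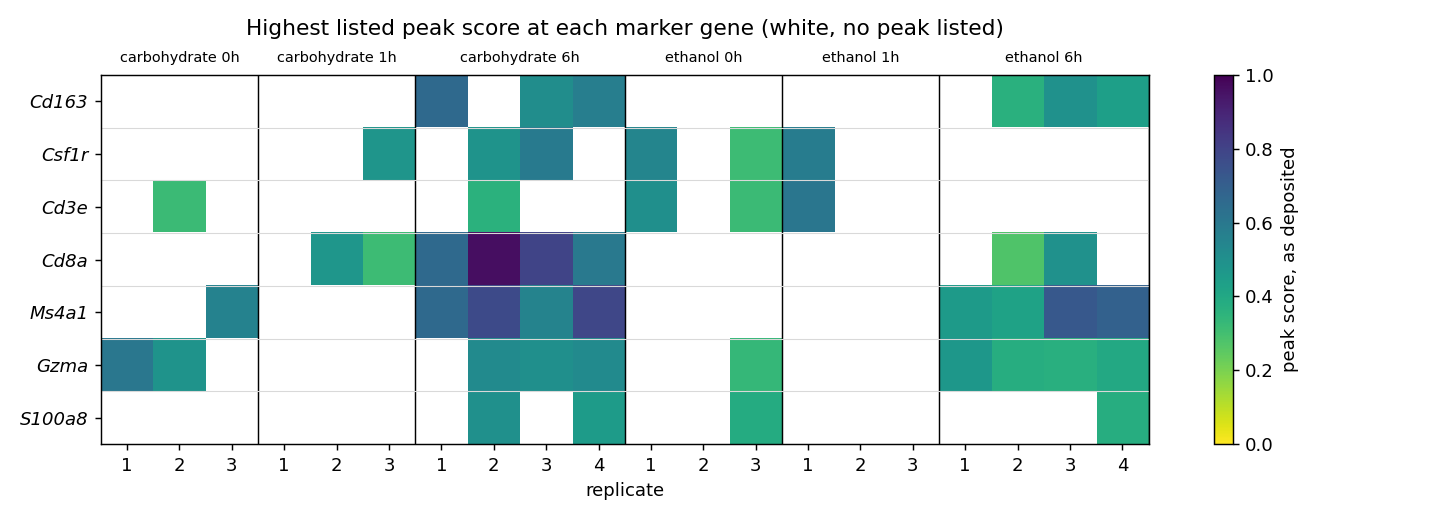
Highest deposited peak score of each of the 7 genes on each array, by group and replicate; white cells have no listed peak. Cd163 has peaks only on 6h arrays and Ms4a1 on all 8 arrays of 6h.

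Across the 20 arrays the signals of Csf1r, Ms4a1 and S100a8 ran together, with Pearson r of 0.87 for Csf1r and Ms4a1, 0.86 for Ms4a1 and S100a8, and 0.79 for Csf1r and S100a8. After the group means were removed r was 0.82, 0.68 and 0.65. The points share arrays, runs and centring, so these are descriptions. Cd163 and Csf1r, both macrophage genes, had r = 0.47, and −0.20 after the group means were removed. Gzma and Ms4a1 had r = −0.01, and −0.60 after the group means were removed.

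By the same measure over all named promoters, those most like Cd163 were Or8u3 and Or2d3c, both olfactory receptor genes (r = 0.88 for each). For Csf1r they were the promoter shared by Ift70a2 and Ift70b (0.94) and Lhpp (0.92), for Cd8a Or2t44b and Esm1 (0.91 for each), for Ms4a1 Adam4l1 and Adam4 (0.95 for each) and for S100a8 Wnt5b (0.95) and Or2ag2b (0.94). For Gzma they were Gpr63 (0.87) and Strbp (0.86), and for Cd3e Apba2 (0.77) and Rasal1 (0.74). None of these 14 was another of the 7.

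Longer lists of immune genes, which include the 7, gave the following for 6h against 0h in carbohydrate, beside 20.6% over all promoters. Of 18 T cell promoters 8 rose, led by Cd8a and by Cd8b, the second CD8 chain, at 0.66 (limma adjusted p = 0.00974). Of 16 promoters of Kupffer cells and macrophages 5 rose, led by the promoter shared by C1qa and C1qc, chains of the complement protein C1q, at 0.73 (adjusted p = 0.00112) and by Spi1, which encodes PU.1, at 0.60 (adjusted p = 0.00348). Of 15 neutrophil promoters 4 rose, led by Ngp at 0.70 (adjusted p = 0.0028) and Fpr1, the formyl peptide receptor, at 0.60 (adjusted p = 0.00264). Of 12 promoters of B and plasma cells 3 rose, Ms4a1 with Pou2af1, a B cell coactivator, at 0.50 (adjusted p = 0.026) among them, and of 14 cytotoxic and NK promoters 3 rose, led by Klrk1, the receptor NKG2D, at 0.44 (adjusted p = 0.0171). None fell in these 5 lists. Their medians were 0.32, 0.31, 0.20, 0.22 and 0.26, beside 0.15 over all promoters. Lists of stellate cells, hepatocytes and sinusoidal endothelium had medians of 0.31, 0.18 and 0.12.

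For 6h against 0h in ethanol only Fpr1 rose in the immune lists, by 0.56 (limma adjusted p = 0.0355), and none fell. For 1h against 0h in carbohydrate 4 of 18 T cell, 2 of 16 macrophage, 2 of 15 neutrophil, 1 of 12 B cell and 0 of 14 cytotoxic and NK promoters rose and none fell, beside 11.1% of all promoters. Apart from the T cell list (22.2%) these shares lay near or below that of all promoters. The rises included C1qb, the third C1q chain, at 0.73 (adjusted p = 0.0147) and Lat, an adaptor of T cell receptor signalling, at 0.66 (adjusted p = 0.0232). For 1h against 0h in ethanol Gzma alone passed. For 6h against 1h in ethanol, beside 23.8% of all promoters, 3 of 14 cytotoxic and NK promoters rose, Gzma and another granzyme gene, Gzmb, among them (0.50, adjusted p = 0.00643), while Gzmm fell by 0.38 (adjusted p = 0.0147). In that comparison 2 of 15 neutrophil promoters rose and 2 fell, 2 of 16 macrophage and 1 of 18 T cell promoters fell, and 1 of 12 B cell promoters rose. S100a9, whose product pairs with that of S100a8, rose by 0.32 (adjusted p = 0.0439). From 1h to 6h in carbohydrate 3 of 16 macrophage promoters rose and 1 fell, 3 of 18 T cell, 2 of 12 B cell and 2 of 15 neutrophil promoters rose, and 2 of 14 cytotoxic and NK promoters rose and 1 fell. The shares that passed, from 13.3% to 25%, lay near or below the 24.1% of all promoters. There S100a9 rose by 0.46 (adjusted p = 0.00563), and Gzmb by 0.43 (adjusted p = 0.015).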

How the data were processed

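Chromatin of 20 rat liver samples was precipitated with an antibody against NF-kB p65 and hybridised to NimbleGen promoter arrays, per the labels' protocols. The channel labels put input DNA in the reference channel, while the labelling text speaks of IgG. Groups came from the sample titles. The other name field says 0h for every sample. Run, slide and animal number came from array identifiers: 4 runs, 11 slides and 16 animal numbers (4 animals gave 2 arrays each). Nothing in the labels ties replicate numbers to animals, so p-values measure only how much these samples vary, which can be technical.

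The authors' deposited table held log2 ratios for 713735 probes, and the authors' peak lists gave every peak a score and an FDR, a q-value like measure of up to 0.19961. Lists held 2874 to 9387 peaks an array. Aligner, peak caller and build are not given in the sources used here. The ratio's direction is not stated either. Listed peaks lay at negative values, so values were multiplied by −1. Each array was centred on its median (deposited medians −0.0249 to 0.017). The SD over probes ran from 0.25 to 0.529 between arrays, and the number of arrays limits the precision.

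Probes were joined across gaps up to 1000 bp, and in each promoter the best 500 bp window (4 or more probes, mean taken across the 20 arrays) gave the signal. This was tested in 14540 promoters with limma 3.58.1 in R 4.3.3 (6 group means, trend, two-sided). Names came from transcript accessions, of which 13678 of 14678 matched RefSeq (GRCr8, names only). Symbols of the 7 genes are those of the files. Python 3.11.15 was used elsewhere. On simulated data for ethanol against carbohydrate at 1h, over 14540 promoters, the fit recovered 21% of changes of 0.4 log2 and 87% of 0.8, with 1 false call. The simulated noise was independent between promoters and arrays, with no run or slide effect, so these rates need not hold for the real arrays. The 7 genes and all lists were chosen with earlier results of these data known. Of list genes, at most the 2 largest rises and 2 largest falls that passed are named per comparison, with the 2 most alike promoters per member.

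Same-numbered replicates of other groups correlated at a mean r of 0.0666 (−0.224 to 0.504, 46 pairs), so the numbers were not taken to pair samples. Alternatives covered scaling, window, direction, run, slide, animal, replicate number, array weights, arrays fitted and each array left out. The window chosen on other arrays and the window at the start were added after seeing the data.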

Additional observations from a re-analysis of the deposited data

How the results depend on the processing

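The counts of genes that passed, of 7, moved as follows, with the share of all promoters that passed under the same setting in parentheses. For 6h against 0h in carbohydrate the 5 (20.6%) became 0 with the mean of the tiled region (9.72%), in the deposited direction (4.92%), with array run as a term (0.358%) and with 500 bp centred on the start (5.58%), and ran from 2 to 5 with 1 array left out. For 6h against 1h in carbohydrate the 4 (24.1%) became 1 with the tiled mean (34.5%), 1 in the deposited direction (2.1%) and 0 at the start (14.8%), and ran from 2 to 5 with 1 array left out. For 1h against 0h in ethanol the 1 (0.275%) became 0 with the tiled mean (3.7%), in the deposited direction (0%), at the start (0%), with run as a term (0.138%) and with only the compared arrays (0%), and was 0 or 1 with 1 array left out. For 6h against 1h in ethanol the 1 (23.8%) became 2 with scaled spread (23.4%), with quantile normalization (24.1%) and within the third run (35.3%), 3 with the tiled mean (45.7%), and 0 in the deposited direction (0.928%) and at the start (12.7%). For 6h against 0h in ethanol the 0 (0.997%) became 1 with scaled spread (5.23%) and quantile normalization (5.65%) and 2 with array weights (11.1%), and was 0 or 1 with 1 array left out. For 1h against 0h in carbohydrate the 0 (11.1%) became 1 with scaled spread (13.9%), quantile normalization (14.7%) and the tiled mean (34.7%), and 3 with array weights (25.5%). Between the diets the 0 (0%) became 1 at 1h within the third run (2.46%), 1 at 6h within that run (1.8%) and with only the compared arrays (0.0825%), and 2 at 6h with array weights (18.9%), which also gave 2 for the difference between the diets in the change to 6h (15.5%). In the deposited direction the values are not multiplied by −1 and the window is chosen anew. The cause of these shifts was not tested.

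Single values had the other sign in these cases. In the deposited direction the values were not multiplied by −1. An opposite sign there is thus the same direction of change, in another window, and not a reversal. A kept sign there is the other direction of change, again in another window. For 6h against 0h in carbohydrate the sign was kept there at Cd163, Csf1r, Cd8a, Ms4a1 and S100a8. It was also kept at Cd163 and Ms4a1 for 6h against 1h in carbohydrate. The Gzma difference for 1h against 0h in ethanol was 0.09 in the deposited direction and 0.03 at the start, and for 6h against 1h in ethanol −0.26 in the deposited direction. At the start, 6h against 0h in carbohydrate was −0.08 at Cd163, −0.22 at Cd8a and −0.09 at S100a8. For 6h against 1h in carbohydrate Cd8a was −0.01 with the tiled mean and −0.07 in the deposited direction, and S100a8 −0.05 in the deposited direction and −0.16 at the start. The cause was not tested.

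With the replicate block 5 of the 7 passed for 6h against 0h in carbohydrate and 5 for 6h against 1h, where Csf1r joined at 0.36 (limma adjusted p = 0.0495), and no other call changed. The slide and animal blocks, with correlations of 0.191 and 0.0722, kept every call. Scaling the spread moved the share of higher calls over all promoters from 90.2% to 72.1% for 6h against 0h in carbohydrate and from 77.8% to 55.6% for 1h against 0h. With peaks of an FDR of at most 0.05, genes with a peak on 2 arrays were 0 at carbohydrate 1h, 3 at carbohydrate 6h and 0 at ethanol 0h, and taking any peak within 5 kb changed no count.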

Other observations

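Promoters of genes of other liver cells, by lists chosen with earlier results known, gave the following. For 6h against 1h in ethanol 6 of 14 hepatocyte promoters fell and none rose, beside 23.8% of all promoters that passed in either direction. They included Alb, the gene of serum albumin, which fell by 0.81 (limma adjusted p = 0.00216), and Tat, tyrosine aminotransferase, which fell by 0.69 (adjusted p = 0.0187). In carbohydrate 4 fell and 1 rose in that list, beside 24.1% of all promoters, with Alb at −0.66 (adjusted p = 0.00774) and Cps1, the first enzyme of the urea cycle, at 0.38 (adjusted p = 0.0254). Of 10 stellate cell promoters 4 rose and 1 fell from 1h to 6h in carbohydrate, and 2 rose and 1 fell in ethanol, beside the same shares of all promoters. Dcn, which encodes the matrix proteoglycan decorin, rose by 0.69 in carbohydrate (adjusted p = 0.000369) and by 0.57 in ethanol (adjusted p = 0.00152), and Pdgfrb, a growth factor receptor, fell by 0.35 (adjusted p = 0.0388) and 0.48 (adjusted p = 0.00783). From 0h to 6h in carbohydrate 4 of 10 stellate cell promoters rose, with a list median of 0.31. In the same comparison 2 of 14 hepatocyte promoters rose, with a list median of 0.18. Of 6 promoters of the sinusoidal endothelium 2 rose there, beside 20.6% of all promoters. The median of that list was 0.12, below the 0.15 over all promoters. The 2 endothelial promoters are named next. They were Tie1 and Tek, a pair of receptor kinases of blood vessels, at 0.48 (limma adjusted p = 0.00816) and 0.60 (adjusted p = 0.00585). Cdh5, the cadherin of endothelial junctions, fell by 0.63 from 1h to 6h in carbohydrate (adjusted p = 0.00994). From 0h to 6h in ethanol 1 of 10 stellate cell promoters rose, beside 0.997% of all promoters that passed. It was Dcn, at 0.49 (adjusted p = 0.0386).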
